A study of Mus musculus with 235 samples.

Results

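Itgad and 7 further integrin subunit genes (Itgam, Itgb2, Itgav, Itgb1, Itgb5, Itgb8 and Itga6) were followed across all brain regions of the study, 8 of the 27998 genes in its count table. Itgad was chosen by its rise after dexamethasone in the CER libraries, which was the largest there among genes averaging 5 counts per 1000000 (CPM) or more. The other members were set beside it as leukocyte and glial integrins, and all were taken by symbol. Because the choice used the contrast of treatment in CER, every CER comparison is given as a description with no test. Tests were made in the other 7 regions, whose libraries came from the same animals.

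The study measured messenger RNA in 8 regions punched from frozen coronal brain sections, labelled AMY, PFC, PVN, dCA1, dDG, vCA1, vDG and CER. The dexamethasone group was given 10 mg/kg of this synthetic glucocorticoid intraperitoneally for 4 h, and the vehicle group was given saline the same way. All animals were group-housed adult male C57Bl/6 mice of 3 months, 15 in each group, with no transgene or other manipulation named. The 235 libraries were sequenced from the 3′ ends of transcripts with unique molecular identifiers, and each group of a region held 13 to 15 of them. The sum of counts per library lay between 268538 and 1451422 (median 742957).

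The region labels are abbreviations that the sources used here do not spell out, and marker genes bore on some of them. Sim1 and Avp, genes of hypothalamic neurons, had their highest medians in PVN, at 14.9 and 46.4 CPM. Rspo2, tried as a marker of the amygdala, had a median of 4.24 CPM in AMY against 57.1 in vCA1. Prox1, of dentate granule cells, had a median of 453 CPM in dCA1 and 428 CPM in dDG, so those punches were not separated by it. The CA1 markers Fibcd1 and Wfs1 ran against the labels, with medians of 30.6 and 32.3 CPM in dCA1 and 39.7 and 51.3 CPM in dDG. The names dCA1 and dDG therefore rest on the labels. In CER the cerebellar genes Gabra6 and Pcp2 both had medians of 0 CPM. Tph2, Slc6a4 and Slc6a5, of serotonergic and glycinergic neurons and named after their values were seen, had medians of 59.3, 30.0 and 35.7 CPM there. CER is therefore called by its label only. Gabra6 reached 351 CPM in a single vDG library and 253 CPM in a single vCA1 library.

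Integrins are cell surface receptors made of an alpha and a beta subunit, which bind matrix or counter-receptors outside the cell and the actin cytoskeleton inside it. Itgad encodes alpha D (CD11d) and Itgam alpha M (CD11b), which both pair with the beta 2 subunit encoded by Itgb2 and are leukocyte integrins, with alpha M and beta 2 also made by microglia. Itga6 encodes alpha 6, a laminin receptor subunit that pairs with beta 1 or beta 4. Itgav encodes alpha V, which pairs with several beta subunits including beta 1, beta 5 and beta 8, and alpha V beta 8 is known for releasing active TGF-beta from its latent form. Glucocorticoids such as dexamethasone act through nuclear receptors that are present in most brain cells.

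Itgad lies in a cluster of related alpha subunit genes on chromosome 7, and a stretch of its coding sequence is shown with its relatives because it bears on whether reads can be told apart. Itgad (ENSMUSG00000070369) spans chr7:128154376-128223816 on the plus strand and Itgam (ENSMUSG00000030786) chr7:128062640-128118491 on the plus strand, in GRCm38. These are the 75 coding bases, as long as a read, in which Itgad is most like Itgax, with the matching stretch of Itgam beside them, from GENCODE M21 transcripts. Capitals mark bases that differ from Itgad.
Itgad, chr7:128189229-128189303: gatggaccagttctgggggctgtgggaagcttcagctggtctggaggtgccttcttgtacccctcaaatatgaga
Itgax, chr7:128135501-128135575: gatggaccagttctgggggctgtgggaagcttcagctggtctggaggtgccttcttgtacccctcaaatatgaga
Itgam, chr7:128085543-128085617: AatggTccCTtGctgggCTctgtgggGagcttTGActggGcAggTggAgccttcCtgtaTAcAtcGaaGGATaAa

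Itgad and Itgax, which encodes alpha X (CD11c), were identical over this window, and Itgam differed at 25 of the 75 bases. In the window of Itgad where each was most like it, Itgam matched 65 of 75 bases and Itgal 52. Of the 4580 distinct 75-base words in Itgad transcripts, 423 (9.24%) also occurred in Itgax or in Gm17831. The last 500 bases of the 3 long Itgad transcripts held no shared word, and the nearest one ended 551 bases before a 3′ end. Another, short Itgad transcript, of 404 bases, held 4 shared words 326 to 329 bases from its 3′ end. The last 75 coding bases of Itgad, near the end from which this assay reads, are shown as the contrasting case.
Itgad, chr7:128205098-128205172: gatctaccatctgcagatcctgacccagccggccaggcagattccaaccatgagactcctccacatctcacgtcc
The best gapless match to it in the coding sequences of Itgam, Itgax and Itgal held 35 of 75 bases. Itgax itself had 32 counts in all libraries together, 26 in vehicle and 6 in dexamethasone. Itgam shares 68.7% of its exon bases on the same strand with the annotated gene Gm49368, and 65.2% of its 75-base words, so its counts are uncertain. Itgad shares 70 exon bases (1.55%) with Cox6a2 on the opposite strand, and the strand setting of the counting is not given in the sources used here. That overlap lies at the 3′ ends of both genes, where the reads of this assay gather, so Cox6a2, a subunit gene of cytochrome c oxidase, is given beside Itgad. Its group medians ran from 0 to 9.66 CPM with vehicle and from 1.15 to 7.86 CPM with dexamethasone, both lowest in CER. Its log2 changes in the 7 tested regions ran from -0.67 in PVN to 0.68 in dDG, and none passed (edgeR without a filter, smallest adjusted p 0.371).

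The other members lie elsewhere in GRCm38. Itgb2 (ENSMUSG00000000290) spans chr10:77530252-77565708, Itgav (ENSMUSG00000027087) chr2:83724397-83806916 and Itga6 (ENSMUSG00000027111) chr2:71745616-71858416, all on the plus strand. Itgb1 (ENSMUSG00000025809) spans chr8:128685654-128733200 and Itgb5 (ENSMUSG00000022817) chr16:33829665-33949153 on the plus strand, and Itgb8 (ENSMUSG00000025321) chr12:119158022-119238802 on the minus strand. The table gives 1 count per gene and library, so the values do not separate exons, untranslated regions or isoforms.

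Itgad rose after dexamethasone in all 7 tested regions, by log2 changes of 2.20 to 3.51. It was low in vehicle libraries, with group medians of 0 to 1.84 CPM over the 8 regions, and 53 of 118 vehicle libraries had no Itgad count. After dexamethasone the group medians over the same 8 regions were 2.76 to 26.5 CPM, and 5 of 117 libraries had no count. These levels include CER, which had the highest median of each arm. Summed over the 7 tested regions, the counts were 71 with vehicle and 651 with dexamethasone.

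In CER, where the gene was chosen, vehicle libraries ran from 1.03 through a median of 1.84 to 8.02 CPM, and dexamethasone libraries from 15.6 through 26.5 to 41.5 CPM. Every CER dexamethasone library lay above every vehicle library, and the log2 change was 3.26 ± 0.24 (SE). Of all genes passing the filter in CER, 0.62% had arms that did not overlap, in either direction. Itgad passed that filter through its dexamethasone libraries, since the filter asked for 13.5 CPM and no vehicle library reached it. The gene was chosen by this contrast, so its lack of overlap in CER is a description only. The next largest rises in CER, taking genes that averaged 5 CPM or more, were those of Cdkn1a at 3.22, Pmaip1 at 2.97 and Traf5 at 2.93. The rank of Itgad thus rests on a difference from Cdkn1a that is smaller than the standard error of its change.

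Itgad levels after dexamethasone in AMY were close to those in CER. AMY vehicle libraries ran from 0 through 1.37 to 4.47 CPM, and AMY dexamethasone libraries from 4.92 through 21.4 to 35.5 CPM. The arms did not overlap in AMY, and summed counts went from 18 to 207. Of the genes that passed the count filter in AMY, which Itgad did not, 0.418% had no overlap. The log2 change was 3.51 ± 0.34 (SE, edgeR quasi-likelihood test, adjusted p 6.25e-11), and 2.18% of all genes passed upward in the same test of AMY, which had no filter.

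Itgad in PVN went from a vehicle range of 0 to 2.71 CPM (median 0.516) to a dexamethasone range of 1.58 to 16.7 CPM (median 8.93). In 13 of 15 PVN dexamethasone libraries the gene lay above the highest vehicle library, and the log2 change was 3.14 ± 0.38 (SE, edgeR, adjusted p 1.03e-08). In vDG it went from 0 to 3.41 CPM (median 0) to 3.12 to 18.98 CPM (median 5.93), with 13 of 15 dexamethasone libraries above the highest vehicle one. The change in vDG was 3.23 ± 0.44 (SE, edgeR, adjusted p 2.09e-06). The vehicle libraries of both regions were at or close to 0, and the arms met only at the edges. Itgad in dCA1 ran from 0 to 1.61 CPM (median 0) with vehicle and from 1.06 to 12.9 CPM (median 4.47) with dexamethasone. Its change there was 2.93 ± 0.46 (SE, edgeR, adjusted p 1.72e-05), with 11 of 13 dexamethasone libraries above all vehicle libraries.

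The smallest changes of Itgad were in dDG, vCA1 and PFC, which also held dexamethasone libraries with no Itgad count. In dDG the gene ran from 0 to 3.97 CPM (median 0.89) with vehicle and from 0 to 19.5 CPM (median 6.18) with dexamethasone, a log2 change of 2.72 ± 0.44 (SE, edgeR, adjusted p 6.54e-05). In vCA1 it ran from 0 to 4.21 CPM (median 0.435) and from 0 to 12.1 CPM (median 7.79), a change of 2.57 ± 0.43 (SE, edgeR, adjusted p 3.66e-05). PFC had the lowest dexamethasone level, with vehicle libraries from 0 to 1.605 CPM (median 0) and dexamethasone libraries from 0 to 12.3 CPM (median 2.76). The change in PFC was 2.20 ± 0.51 (SE, edgeR, adjusted p 0.00347) and rested on 6 counts with vehicle and 30 with dexamethasone. In the 7 regions together, 82 of 102 dexamethasone libraries lay above the highest vehicle library of their region. Without a filter, 2.11% of all genes passed upward in PVN, 1.76% in vDG and 1.79% in dCA1. The share was 1.4% for dDG, 2.28% for vCA1 and 2.53% for PFC, and 2.01% of gene tests over the 7 regions.

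**Figure D1:**
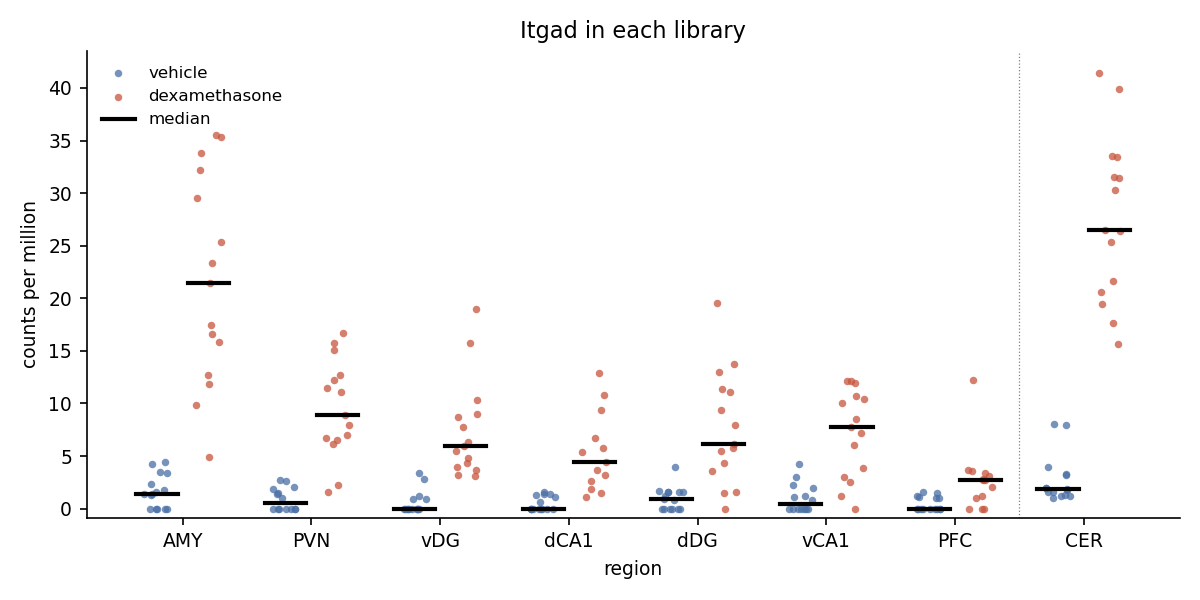
Itgad level in CPM (y axis) in each library, by region (x axis); blue points are vehicle, red points dexamethasone, and black bars are group medians. The arms are apart in AMY and CER, and medians after dexamethasone run from 2.76 in PFC to 26.5 in CER, which the dotted line separates because the gene was chosen there.

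A test of whether the Itgad response differed among the 7 regions, with animal as a block and no filter, gave F = 0.61 (edgeR, p 0.725, adjusted p 1). This does not show that the responses were alike, since the 95% intervals of the regional log2 changes reached from 1.2 to 4.18. The mean RNA integrity number of the groups ran from 5.69 to 7.81, and with it as a covariate Itgad passed in all 7 regions. Samples were processed on plates and punching dates recorded in the labels. Within single plates the difference in Itgad was positive in 28 of 28 combinations of plate and tested region, and within single dates in 27 of 28. The exception was a date in PFC, with a difference in mean log2(CPM + 1) of -0.20.

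The fall or rise of a transcript in a tissue punch does not say whether fewer cells or less RNA per cell was present, since bulk RNA cannot tell these apart. Markers of blood leukocytes were therefore read beside Itgad. None of the 8 border macrophage and monocyte, 10 neutrophil and 7 lymphocyte markers passed the count filter in any region. Lymphocyte markers had 26 counts in all vehicle and 30 in all dexamethasone libraries, with a group median of 0 CPM throughout. Neutrophil markers summed to 370 counts with vehicle and 398 with dexamethasone, and their group medians of summed level ran from 0 to 8.85 CPM and from 1.31 to 7.37 CPM. The median was higher after dexamethasone in 5 regions and lower in 3. Of the vehicle counts, 194 were in vDG, where 1 library reached 158 CPM, and without vDG the sums were 176 with vehicle and 267 with dexamethasone. They went from 33 to 75 in AMY and from 24 to 63 in vCA1, and the part of neutrophils in the Itgad result was not tested. Border macrophage and monocyte markers summed to 1496 and 1509 counts, with group medians of 8.39 to 32.8 CPM and 7.26 to 29.7 CPM. Without a filter, 4 of their 55 tests in the 7 regions passed upward and 1 downward, where 2.01% and 1.27% of all gene tests did. Lyve1, a hyaluronan receptor of border macrophages, rose in PFC, PVN, dCA1 and vCA1 by 1.25 to 2.81 (edgeR, largest adjusted p 0.0483), with 116 counts in all vehicle and 340 in all dexamethasone libraries of the 7 regions. Ccr2, the chemokine receptor of monocytes, fell in vDG with a change of -2.30 (edgeR, adjusted p 0.0354). Its counts over the 7 regions together were 54 with vehicle and 8 with dexamethasone. The part of these cells in the Itgad result was not tested. None of 56 neutrophil and 29 lymphocyte tests passed without a filter. In 3 to 7 of the lymphocyte markers and up to 7 of the neutrophil markers a group had no count.

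Microglial markers moved with the treatment. The summed level of 15 microglial markers had group medians of 406 to 793 CPM with vehicle and 278 to 525 CPM with dexamethasone, lower in each of the 8 regions, and none was at 0. Cx3cr1, the fractalkine receptor, fell in 7 of 7 regions by 2.03 to 2.39 on the log2 scale, and P2ry12, a purinergic receptor, fell by 0.70 to 1.17 in all 7. Without these genes the remaining 13 markers had group medians of 277 to 526 CPM with vehicle and 241 to 451 CPM with dexamethasone, lower in 8 of 8 regions. Siglech, a sialic acid-binding lectin, and Tyrobp, a signalling adaptor, each fell in PFC, by 0.67 and 0.54 (edgeR, adjusted p 0.0334 and 0.0125), and Csf1r and C1qb passed in no region. In all, 16 of 69 microglial tests passed downward, 14 of them tests of Cx3cr1 and P2ry12, and none passed upward. Over all genes, 1.9% of tests in the 7 regions passed downward. Without a filter, 26 of 105 microglial tests passed downward and none upward, with Gpr34 in 7 regions and Aif1 in 3 added. The part of microglia in the Itgad result was not tested.

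Itgb2, whose product is the beta partner of alpha D and alpha M, passed the test in none of the 7 regions. Its group medians ran from 4.21 to 8.63 CPM with vehicle and from 4.00 to 8.46 CPM with dexamethasone, and the arms overlapped in every region. Log2 changes ran from -0.34 in dCA1 to 0.24 in dDG (edgeR, smallest adjusted p 0.667), with 95% intervals reaching from -0.93 to 0.85 and no unadjusted p below 0.05. In AMY, Itgb2 vehicle libraries ran from 2.23 through 8.12 to 11.0 CPM and dexamethasone libraries from 0 through 8.46 to 14.4 CPM. In CER its vehicle libraries ran from 0 through 5.97 to 12.4 CPM and its dexamethasone libraries from 0 through 4.71 to 7.89 CPM. With 1037 counts in all libraries, Itgb2 did not pass the count filter in any of the 8 regions.

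Itgam, the other alpha partner of beta 2 among the members, passed in vDG only, where it fell, and had values below 0 in all 7 regions. In vDG its vehicle libraries ran from 14.8 through a median of 24.8 to 56.8 CPM, and dexamethasone libraries from 8.97 through 15.0 to 29.4 CPM. The arms overlapped, with 7 of 15 dexamethasone libraries below the lowest vehicle one, and the log2 change was -0.71 ± 0.18 (SE, edgeR, adjusted p 0.0117). The share of all genes passing downward in vDG was 1.29%. Elsewhere Itgam changes ran from -0.40 in dDG to -0.15 in PFC and did not pass, although AMY and dCA1 had unadjusted p of 0.0342 and 0.028 (edgeR, adjusted p 0.293 and 0.271). Its response was not shown to differ among regions (edgeR F test, p 0.554, adjusted p 1). In CER the medians were 20.8 CPM with vehicle and 14.1 CPM with dexamethasone, a change of -0.39 ± 0.18 (SE). The summed microglial marker level in vDG had a median of 507 CPM with vehicle and 329 CPM with dexamethasone, and its part in the Itgam change was not tested.

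Itga6 fell in all 7 tested regions, by log2 changes of -0.66 to -1.11. The steepest change was in dCA1, where vehicle libraries ran from 42.3 through a median of 57.6 to 131 CPM and dexamethasone libraries from 13.0 through 32.3 to 38.4 CPM. All 13 dexamethasone libraries of dCA1 lay below all 15 vehicle libraries, in a region where 0.218% of genes had no overlap. The change was -1.11 ± 0.15 (SE, edgeR, adjusted p 1.96e-06), and 2.08% of genes passed downward in dCA1.

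In vDG, Itga6 ran from 40.3 through 61.0 to 96.3 CPM with vehicle and from 20.3 through 30.9 to 49.3 CPM with dexamethasone, a change of -0.98 ± 0.14 (SE, edgeR, adjusted p 3.87e-06). In dDG it ran from 37.0 through 54.2 to 67.6 CPM and from 15.1 through 27.3 to 43.8 CPM, a change of -0.92 ± 0.13 (SE, edgeR, adjusted p 5.84e-06). In AMY it ran from 50.2 through 69.2 to 95.7 CPM and from 18.4 through 40.0 to 52.4 CPM, a change of -0.88 ± 0.13 (SE, edgeR, adjusted p 2.48e-06). In these 3 regions the arms met only in the tails, with 13, 11 and 13 of 15 dexamethasone libraries below the lowest vehicle library. In vCA1 the alpha 6 transcript ran from 44.9 through 56.6 to 100.1 CPM and from 18.1 through 33.0 to 60.3 CPM, a change of -0.77 ± 0.13 (SE, edgeR, adjusted p 6.39e-05). In PVN it ran from 36.4 through 65.4 to 89.2 CPM and from 21.8 through 38.7 to 58.1 CPM, a change of -0.76 ± 0.11 (SE, edgeR, adjusted p 2.87e-06). PFC had the smallest change, -0.66 ± 0.12 (SE, edgeR, adjusted p 6.67e-05), from vehicle libraries of 25.7 through 45.4 to 66.2 CPM to dexamethasone libraries of 20.2 through 31.3 to 35.5 CPM. Only 3 of 14 PFC dexamethasone libraries lay below the lowest vehicle library, although all 14 lay below the vehicle median.

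**Figure D2:**
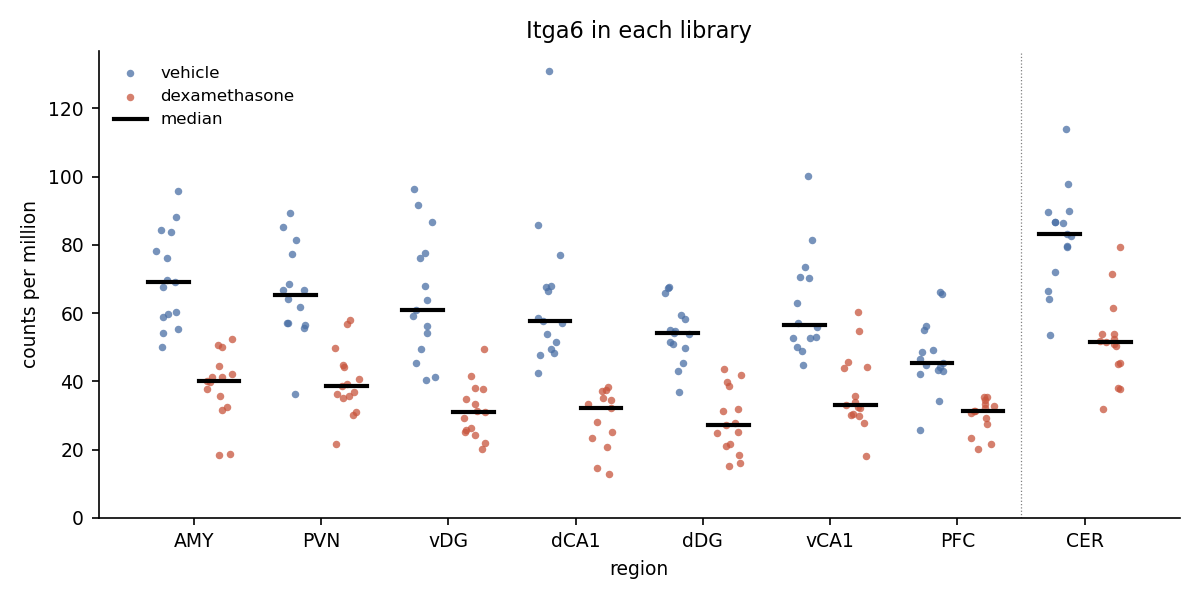
Itga6 level in CPM (y axis) in each library, by region (x axis); blue points are vehicle, red points dexamethasone, and black bars are group medians. Red medians are lower in each region, the arms are fully apart in dCA1, and CER right of the dotted line is a description.

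Over the 7 regions, 71 of 102 dexamethasone libraries had less Itga6 than the lowest vehicle library of their region. Within single plates Itga6 was lower after dexamethasone in 28 of 28 combinations of plate and tested region, and within single punching dates in 28 of 28. In CER the medians were 83.2 CPM with vehicle and 51.7 CPM with dexamethasone, a change of -0.68 ± 0.11 (SE) given without a test. Differences among the 7 regions were not shown (edgeR F test, p 0.221, adjusted p 1). Among all genes, 1.9% of tests in the 7 regions passed downward. By region the share was 2.08% for AMY, 1.38% for dDG, 2.28% for PFC, 2.17% for PVN and 2.04% for vCA1.

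Endothelial markers were read beside Itga6, since alpha 6 is also made by brain endothelium. The summed level of 7 endothelial markers had group medians of 310 to 474 CPM with vehicle and 223 to 315 CPM with dexamethasone, lower in 8 of 8 regions, and none was at 0. Flt1, a VEGF receptor, and Slco1a4, an organic anion transporter of the blood-brain barrier, fell in all 7 tested regions, by 0.59 to 0.80 and by 0.62 to 0.94 on the log2 scale. Pecam1 and Ly6c1, also endothelial, passed in none. Without a filter, the tight junction gene Cldn5 fell in all 7 regions, with changes of -1.95 to -1.09 (edgeR, largest adjusted p 0.0281). The receptor gene Tek fell in 4 (edgeR, largest adjusted p 0.0139). In all, 14 of 28 filtered endothelial tests passed downward and none upward, where 1.9% and 3.13% of all gene tests did. Without a filter, 25 of 49 passed downward and none upward, where 1.27% and 2.01% did. Without Flt1 and Slco1a4 the other 5 markers had group medians of 93.2 to 121 CPM with vehicle and 88.6 to 129 CPM with dexamethasone, lower in 6 of 8 regions. The part of endothelium in the Itga6 result was not tested.

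Itgb1, the common beta partner of alpha 6, passed in none of the 7 regions, although dDG came near the threshold. In dDG its vehicle libraries ran from 37.7 through a median of 54.7 to 72.7 CPM and dexamethasone libraries from 23.7 through 45.4 to 69.7 CPM. The arms overlapped widely, and the log2 change was -0.38 ± 0.12 (SE, edgeR, adjusted p 0.0664). With the replicate number as a block, which marks a shared plate and punching date, the change was -0.39 (edgeR, adjusted p 0.0285), and with DESeq2 it was -0.38 (adjusted p 0.0475). In the other 6 regions Itgb1 changes lay between -0.18 in vCA1 and 0.04 in vDG. In CER its medians were 62.5 CPM with vehicle and 65.7 CPM with dexamethasone.

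Itgb8, the beta subunit of the TGF-beta activating integrin, fell in dCA1. There its vehicle libraries ran from 86.1 through a median of 130.0 to 176 CPM and dexamethasone libraries from 78.7 through 99.1 to 129 CPM. All 13 dexamethasone libraries lay below the vehicle median, though only 2 lay below the lowest vehicle library, and the log2 change was -0.35 ± 0.10 (SE, edgeR, adjusted p 0.0308). The other regions ran from -0.25 in vDG to 0.16 in AMY and did not pass, with dDG at -0.23 ± 0.09 (SE, edgeR, adjusted p 0.217). Of 9 astrocyte markers, the transcription factor gene Sox9 fell in dCA1 by 1.16 (edgeR, adjusted p 4.7e-07). Sox9 fell in all 7 tested regions, with changes of -1.20 to -0.67. The water channel gene Aqp4 fell in dCA1 by 0.43 (edgeR, adjusted p 0.0477), and Aldh1l1 rose there by 0.72 (edgeR, adjusted p 0.0154). In dCA1 the summed level of the 9 markers ran from 5633 to 17010 CPM (median 7282) with vehicle. With dexamethasone it ran from 5419 to 9283 CPM (median 6551), and no marker was at 0. The part of astrocytes in the Itgb8 result was not tested. A difference among regions was not shown (edgeR F test, p 0.115, adjusted p 0.999). In CER the medians of Itgb8 were 197 CPM with vehicle and 209 CPM with dexamethasone.

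Itgav and Itgb5, which encode the alpha V subunit and another of its beta partners, passed in no region, and no unadjusted p lay below 0.05. Itgav changes ran from -0.18 in vDG to 0.20 in vCA1, with 95% intervals from -0.41 to 0.45 (edgeR, smallest adjusted p 0.486). Its medians ran from 41.6 to 65.8 CPM with vehicle and from 43.2 to 64.5 CPM with dexamethasone over the 8 regions. Itgb5 values were above 0 in 7 of 7 regions, from 0.08 in dCA1 to 0.31 in PVN, with 95% intervals from -0.28 to 0.63 (edgeR, smallest adjusted p 0.4). In PVN, Itgb5 vehicle libraries ran from 10.3 through 19.2 to 30.4 CPM and dexamethasone libraries from 12.2 through 25.2 to 50.1 CPM, with wide overlap.

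**Figure D3:**
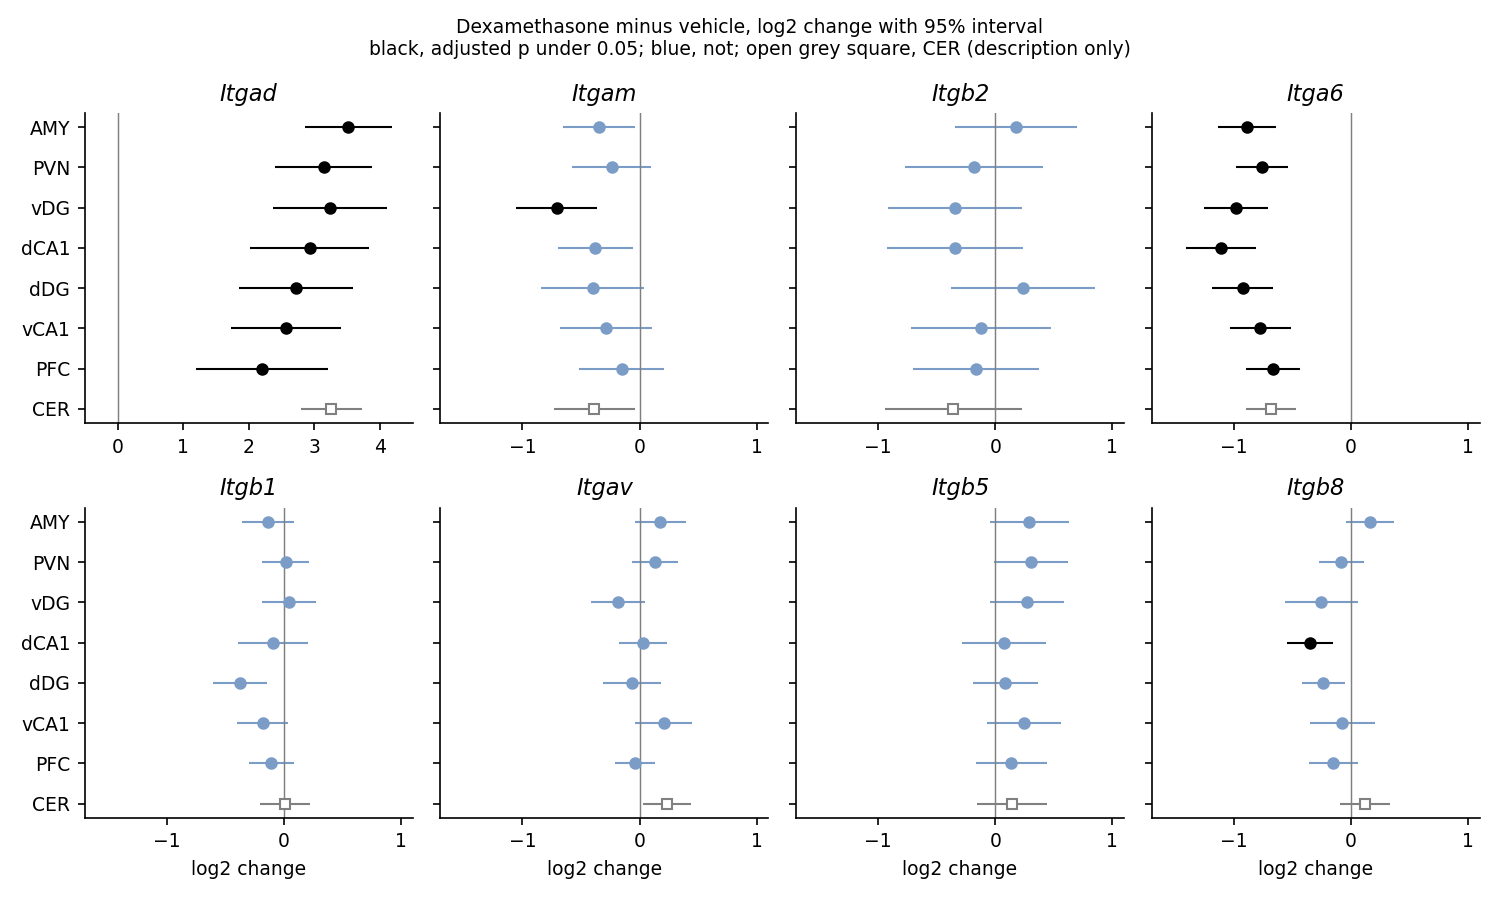
Log2 change, dexamethasone minus vehicle (x axis), with 95% interval for each member (panel) and region (y axis); black points passed the adjusted p threshold of 0.05, blue points did not, and open grey squares are CER, shown without a test. The Itgad axis covers larger values than the others; Itgad and Itga6 are black in all 7 tested regions, Itgam in vDG and Itgb8 in dCA1.

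Across the 6 members that passed the filter, 9 of the 42 tests in 7 regions passed, all downward. Of these, 7 were tests of Itga6, in regions of the same animals. Over all genes, 1.9% of tests passed downward and 5.03% in either direction. Without a filter, 16 of 56 passed, because the 7 Itgad tests entered, where 3.28% of all gene tests passed. The test for a difference in response among the 7 regions, without a filter, called none of the 8 members (edgeR, 0 with an unadjusted p below 0.05), where 0.364% of all genes passed, and 0.815% did with the filter. The member median log2 change per region lay between -0.31 in dDG and 0.02 in AMY over the 6 members that passed the filter, and the median of all genes between -0.01 and 0.00.

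Of 20 other listed integrin genes, 4 passed the filter in at least 1 of the 7 regions, and none of their 16 tests passed. These were Itga3, Itga4, Itga7 and Itga8, with changes between -0.44 and 0.47. Over all genes, 5.03% of filtered tests passed in either direction. Without a filter, 1 of 131 tests of the 20 passed, where 3.28% of all gene tests did. It was that of Itgb7 in PFC at 2.51 (edgeR, adjusted p 0.0163). Itgb7 had 16 counts in all vehicle and 26 in all dexamethasone libraries of the 7 regions. Itgal, the alpha L partner of beta 2 found on lymphocytes, had group medians of 0 to 1.77 CPM with vehicle and 0 to 1.85 CPM with dexamethasone. Its summed counts were 82 and 77.

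Of 24 listed genes that link integrins to the cytoskeleton or activate them, 21 were tested, and 4 of 136 tests passed upward and 6 downward. Over all genes, 3.13% of tests passed upward and 1.9% downward. Vcl, which encodes the actin linker vinculin, fell in PFC and PVN, by 0.50 and 0.42. Over the 7 regions its changes ran from -0.50 to 0.14. The talin gene Tln1, the kindlin gene Fermt2, the focal adhesion kinase gene Ptk2 and Apbb1ip, an adaptor that recruits talin, each fell in 1 region, and Ilk, Lims1, Ptk2b and Sharpin each rose in 1. Without a filter, 3 of 168 tests passed upward and 8 downward, where 2.01% and 1.27% of all gene tests did. Apbb1ip then fell in 3 regions and Lims1 no longer passed. List medians per region lay between -0.11 in AMY and 0.07 in vDG.

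On the ligand side, 19 of 97 tests of 16 tested genes passed upward and none downward. Over all genes, 3.13% and 1.9% of tests did. Col4a1, Nrros and Col4a2 made up 16 of the calls. Nrros, with 6, passed the filter through its dexamethasone libraries. Spp1, called in vCA1, had 3 vehicle and 11 dexamethasone libraries there at the level the filter asks for. The filtered count is therefore no measure of how often ligand genes rose. Without a filter, 23 of 216 tests of 32 genes passed upward and 5 downward, where 2.01% and 1.27% did. The 5 were tests of the laminin chain genes Lama5, in 2 regions, and Lama4, in 1, and of Icam1 and Tgfb1, in 1 each. Col4a1, a collagen IV chain of basement membranes, rose in 7 of 7 regions by 0.44 to 1.02. In PFC its vehicle libraries ran from 14.7 through a median of 28.5 to 40.5 CPM and dexamethasone libraries from 38.1 through 62.4 to 82.9 CPM. The PFC arms met only at the edge, and the change was 1.02 ± 0.13 (SE, edgeR, adjusted p 4.73e-08). Its partner chain Col4a2 rose in PFC, PVN and vDG, by 0.46 to 0.84. Its changes in the other tested regions, from 0.23 in dDG to 0.50 in dCA1, did not pass. Lamc1, a laminin chain, rose in PVN and vDG by 0.64 and 0.61, of which PVN did not pass without a filter (edgeR, adjusted p 0.0511). The laminin chain Lamb2 passed in none.

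Nrros encodes a transmembrane protein of myeloid cells that anchors latent TGF-beta 1, the form on which alpha V beta 8 acts. In each region 0 to 3 vehicle and 12 to 15 dexamethasone libraries had Nrros at the level the filter asks for. It failed the filter in dDG and passed elsewhere through the dexamethasone arm, so its tests are given without a filter. It rose in 7 of 7 tested regions, by 1.3 in AMY to 2.26 in PVN (edgeR, largest adjusted p 1.33e-06). In PVN its vehicle libraries ran from 1.12 through a median of 5.70 to 12.3 CPM and dexamethasone libraries from 16.6 through 28.5 to 45.9 CPM. The arms did not overlap in PVN, where 0.399% of genes passing the filter had no overlap, and the change was 2.26 ± 0.21 (SE, edgeR, adjusted p 1.72e-12). In CER its medians were 5.34 CPM with vehicle and 35.2 CPM with dexamethasone. Tgfb2 passed in none of 7 regions, with changes of -0.40 to -0.17, and Tgfb1, with medians of at most 2.13 CPM, fell in PFC without a filter (edgeR, adjusted p 0.0461). The ligand list median per region lay between -0.16 in dDG and 0.16 in vDG.

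**Figure D4:**
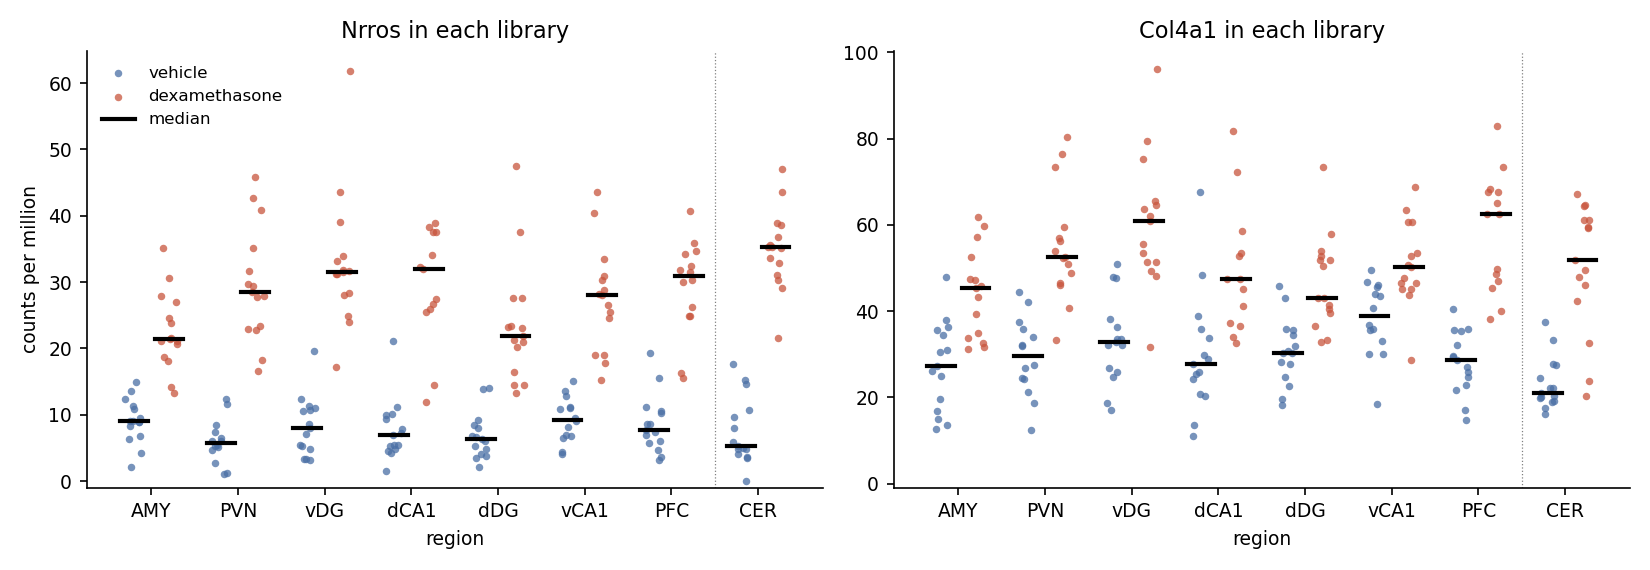
Nrros (left) and Col4a1 (right) in CPM (y axis) in each library, by region (x axis); blue points are vehicle, red points dexamethasone, black bars group medians. Red medians lie above blue ones in all regions, with Nrros group medians of 5.34 to 9.29 with vehicle and 21.4 to 35.2 with dexamethasone; CER is right of the dotted line.

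In vehicle mice, levels differed among the 7 tested regions for 5 of the 6 members that passed the filter, where 67% of all genes differed (edgeR F test with animal as a block). The highest Itgam level was that of AMY, 38.8 ± 9.03 CPM (SD, n = 15), and the lowest that of PVN, 18.0 ± 5.34 CPM (SD, n = 14), a log2 difference of 1.12 ± 0.18 (SE, edgeR, adjusted p 2.63e-07). The mean of AMY passed as higher than that of each of the other 6 regions, and no other neighbours in the order passed. CER, set beside them without a test, had 20.0 ± 6.60 CPM (SD, n = 15).

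Itgav was highest in PFC at 65.8 ± 9.29 CPM (SD, n = 15) and vDG at 61.5 ± 13.7 CPM (SD, n = 15). The PFC and vDG means did not pass as different (edgeR, adjusted p 0.188). Both were above each of the other 5 regions, which ran from 48.4 CPM in AMY to 41.8 CPM in vCA1 with no difference between neighbours. Itgb8 was highest in PVN at 149 ± 20.1 CPM (SD, n = 14), and PFC and vCA1 were lowest at 103 ± 20.7 CPM (SD, n = 15) and 100.5 ± 24.7 CPM (SD, n = 14). No neighbours in the Itgb8 order differed, and 9 of 21 pairs did, where 28.6% of all such tests passed. CER had 196 ± 45.7 CPM (SD, n = 15) of Itgb8, above all 7 in the order of means.

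Itga6 differed among the regions mainly through PFC, which at 47.3 ± 10.5 CPM (SD, n = 15) lay below 5 of the other 6 regions. Of the 7, AMY had most, 70.1 ± 13.8 CPM (SD, n = 15), and CER had 82.2 ± 14.5 CPM (SD, n = 15). Itgb1 ran from 64.1 CPM in AMY to 48.4 CPM in dCA1, and 3 of 21 pairs differed. Itgb5 did not pass the F test (edgeR, adjusted p 0.177), nor did Itgb2 and Itgad without a filter (edgeR, adjusted p 0.182 and 0.233), where 42.8% of genes passed. Vehicle means of Itgad ran from 1.69 CPM in AMY to 0.495 CPM in PFC, with 2.80 CPM in CER, and each of these had an SD near its mean.

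The genes whose pattern over the 16 group means was most like that of Itgad, among 7915 genes tested in all 8 regions, were Sgk1, Synm, Polr3e, Sgk3 and Pnpla2. Their Pearson r over the group means of log2 level were 0.97, 0.97, 0.97, 0.96 and 0.96. The 16 points share the treatment difference and the animals, and they include CER, where Itgad was chosen, so these are descriptions. Of the members, Itgb5 had r = 0.68, Itga6 -0.51 and Itgam -0.39 by the same measure. Itgb8 had 0.33, Itgb2 -0.33, Itgav 0.21 and Itgb1 0.13. Over the 8 dexamethasone groups alone, CER again among them, r with Itgad was 0.93 for Itgb8 and 0.80 for Itga6. It was 0.64 for Itgb1, 0.56 for Itgb5, 0.31 for Itgav, 0.10 for Itgam and -0.07 for Itgb2. CER had the highest median of Itgad, Itgb8 and Itga6 among these groups.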

How the data were processed

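The counts were deposited by the authors as 1 table of whole-number counts per gene for 235 libraries. Per the submitters' processing notes, reads were handled with cutadapt, UMI-tools 0.5.4, STAR 2.6.0a and featureCounts 1.6.4 on mm10; the settings are not given in the sources used here. The authors also deposited log2-scale values from DESeq2 per region, per the labels, of which only the lists of libraries were used. Gene positions and exon overlaps were read from the annotation given with the deposited counts. GENCODE M21 (GRCm38) gave the transcript sequences and served to check the genome build. Of the genes found in both, 99.9% overlapped their GENCODE M21 counterpart, and 78.4% matched it at both ends.

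Each region was fitted over all genes with edgeR 4.0.16 (R 4.3.3): filterByExpr by arm, TMM scaling, quasi-likelihood test, and Benjamini-Hochberg adjustment over all genes tested, with a threshold of 0.05. Itgad in 7 regions and Itgb2 in 8 failed the filter, so their values come from the same fit without a filter, adjusted over all genes with a count. CPM are counts per 1000000 of the TMM-scaled library total. Standard errors were taken as the log2 change over the root of F, and 95% intervals from them. Differences among regions used an F test with animal as a block. DESeq2 1.42.0 and 7 other settings were run for comparison. The likeness to Itgad was taken over means of log2(CPM + 1). The functions were tested on simulated counts.

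All members were named in all regions; other genes came from lists of integrins, adaptors, ligands and cell markers. Members and lists were chosen with earlier results of these data known. Replicate numbers link a vehicle and a dexamethasone animal on the same plate and punching date in 109 of 115 pairs of libraries, and 83 of 115 had deviations correlated above 0.1 (median r 0.18). The replicates of a group are separate animals.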

Additional observations from a re-analysis of the deposited data

How the results depend on the processing

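The 9 calls among the 42 filtered member tests became 16 of 56 tests with no filter and 5 of 26 when only genes with 10 counts in every library were tested; both changes follow from which genes were tested. With DESeq2 or with the replicate block 10 of 42 passed, Itgb1 in dDG being added, and the replicate block changed no other call. Of 404 member values recomputed under an alternative in the 7 tested regions, none changed sign, and the 2 that changed their side of the threshold were that Itgb1 value. Of 59 in CER, which has no test, 2 changed sign: Itgb1 went from 0.0069 to -0.013 with plate and date as terms and to -0.0012 with only the libraries in the authors' tables. Itgad passed under 42 of 42 alternatives, with log2 changes of 2.20 to 3.67 and a largest adjusted p of 0.0246. The alternatives that combined no filter with another choice, and the counts of listed genes without a filter, were chosen after seeing the data. Itga6 passed under 53 of 53, at -1.12 to -0.64. With RNA integrity as a covariate Itgb5 vehicle levels also differed among regions (edgeR F test, adjusted p 0.0398, against 0.177). Leaving out the 7 libraries that the authors' regional tables do not list changed no call. Depth limits Itgad and Itgb2 most, with 1054 and 1037 counts in 235 libraries.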
